A study of Mus musculus with 8 samples.

Results

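The genes described here are 34 markers of endothelial cells, the cells that line blood and lymph vessels, read out in RNA from mouse muscle stem cells. The members were taken as a given list of gene symbols, chosen with earlier results of these data known. All 34 were found in the count and TPM tables, among 57180 genes, and they were followed across all 8 libraries. Muscle stem cells are the resident progenitors of skeletal muscle. They were isolated fresh by flow cytometric sorting, and total RNA was turned into cDNA by a template-switching kit for low RNA input. The control group held 4 libraries labelled WT (replicates 2, 5, 7 and 8). The other group held 4 libraries titled RhoA het (replicates 5, 6, 7 and 8), whose genotype is also labelled RhoA knockdown and which the study's design calls SC-RhoAfl/+, a floxed RhoA allele beside an intact one in the stem cells. The labels used here give no Cre driver, age, strain or number of animals per library, so p-values measure only the spread between these libraries, which may be partly technical.

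Endothelial cells hold each other at junctions built from VE-cadherin, PECAM-1 and claudin-5. They respond to VEGF and angiopoietins through receptor tyrosine kinases, and their identity is kept by ETS and SOX transcription factors. In skeletal muscle, capillaries run along the fibres and muscle stem cells lie close to them, so a sort of stem cells starts from tissue that is rich in endothelium. In RNA from bulk sorted cells, a change in the number of cells of a type and a change in RNA per cell cannot be told apart.

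Total assigned fragments lay between 19138763 and 25606342 per library. The targeted gene Rhoa lay between 272.6 and 382.9 CPM in control and between 252.5 and 282.1 CPM in RhoA het, where CPM is the count relative to a library total scaled by TMM. A list of 16 muscle stem cell markers summed to 10780 to 15710 TPM in control and 10450 to 17000 TPM in RhoA het, with the highest sum in RhoA het replicate 6, where TPM corrects counts for exon length and gives each library the same sum. By CPM, 3 of the 16 stem cell markers were highest in that library. The Rhoa ranges of the groups overlapped, with RhoA het replicate 8 above control replicate 7. In replicates 5, 7 and 8, Rhoa was lower in RhoA het (252.5, 253.2 and 282.1 CPM) than in control (309.2, 272.6 and 333.6 CPM). Reads of 4 Y-linked genes were found in control replicate 2 (14358 fragments) and RhoA het replicate 6 (14659 fragments), and the other 6 libraries held at most 2. These libraries are also the lowest and the highest for most endothelial genes, as described next. Whether sex has a part in those levels was not tested.

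The endothelial genes were high in 1 library. RhoA het replicate 6 held the highest CPM of all 8 libraries for 33 of 34 members, whereas it was the highest library for 13.4% of the 15660 genes tested. In that library 30 members reached at least 2 times the highest other library (1.39% of all genes did) and 24 reached at least 4 times (0.562% of all genes). The ratio of this library to the highest other one had a median of 5.32 over the members and of 0.741 over all genes tested. Against the median of the 7 other libraries it had a median of 8.83 over the members. All 34 members summed to 3655 TPM in RhoA het replicate 6 and to between 962.7 and 1652 TPM elsewhere. Cav1, the most abundant member, had a ratio of only 1.13. The members without Cav1 summed to 2474 TPM in RhoA het replicate 6 and to between 156 and 577.3 TPM elsewhere. They took 0.276% of its fragments and 0.0195% to 0.0621% in the other libraries. This is 1 library with no replicate of its own, and its ratios are given as a description. The library was named beforehand and the members were chosen with earlier results of these data known. The contrast with all genes is therefore not an independent test.

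**Figure D1:**
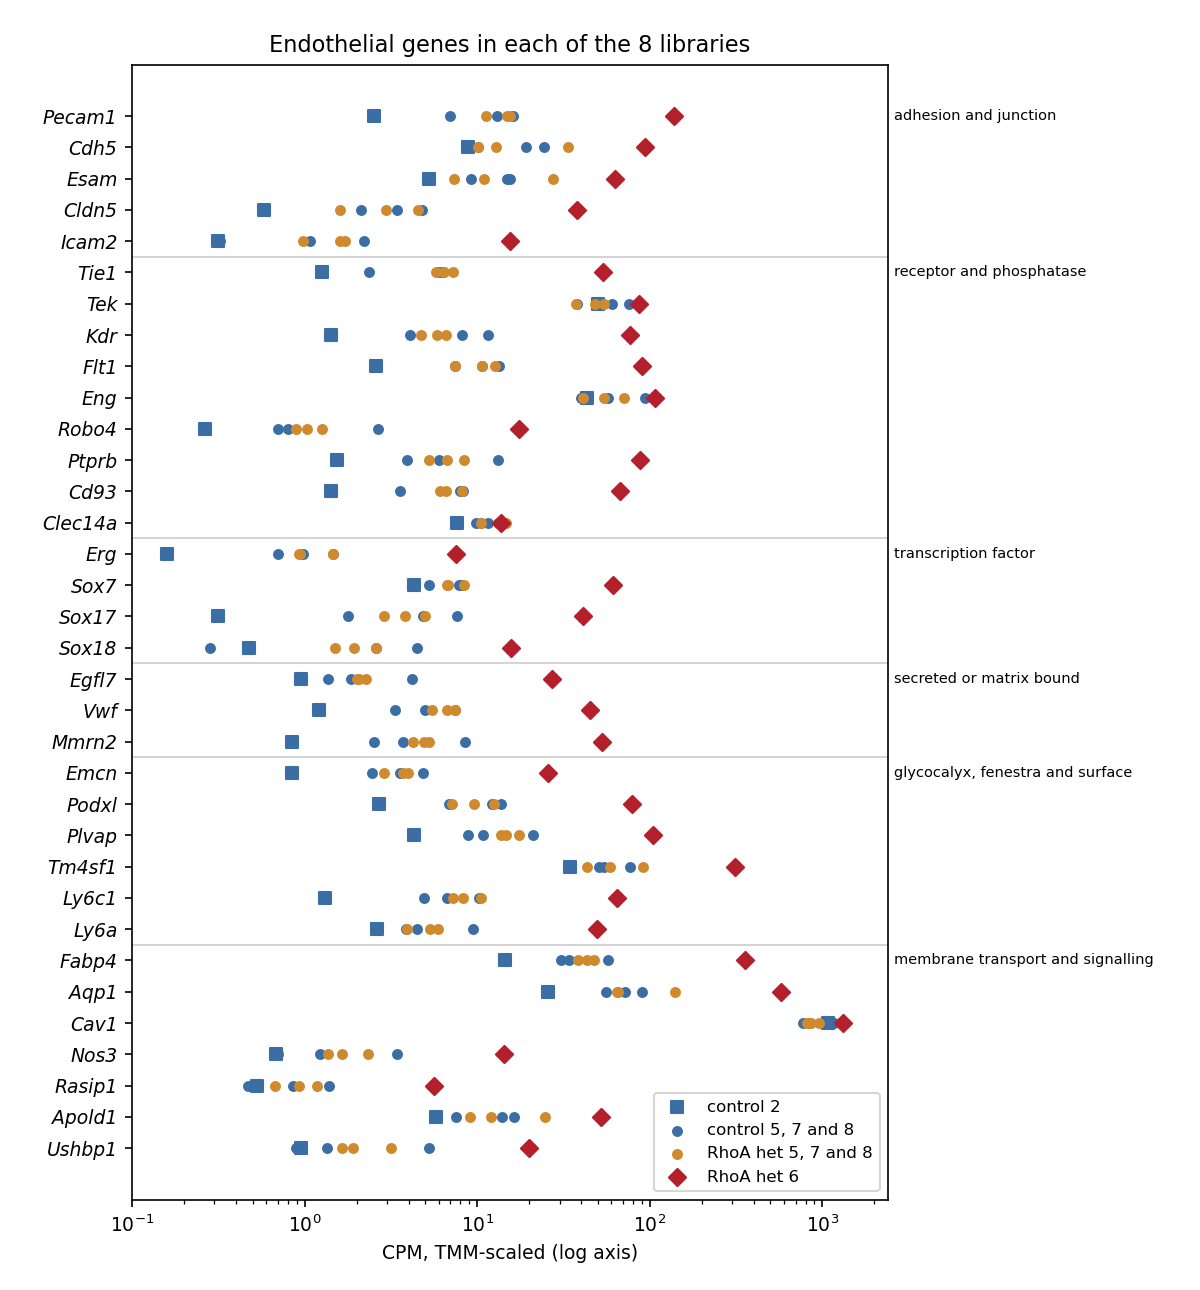
CPM (log axis) of each of the 34 endothelial genes in the 8 libraries, grouped by role, with control replicate 2 as squares and RhoA het replicate 6 as diamonds. The diamonds lie to the right of all other libraries for 33 genes, the exception being Clec14a, while the squares lie furthest left for 28 genes.

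Adhesion and junction genes were the first group. Pecam1, which encodes the platelet and endothelial adhesion molecule PECAM-1 (ENSMUSG00000020717.20, mm39 chromosome 11, 106545043 to 106641454, minus strand), was at 2.54, 13.05, 16.1 and 6.95 CPM in control replicates 2, 5, 7 and 8. It was at 14.9, 137.3, 15.5 and 11.3 CPM in RhoA het replicates 5, 6, 7 and 8. The groups overlapped, and RhoA het replicates 5, 7 and 8 lay inside the range of the controls. Pecam1 also had the highest ratio among the members, 8.52 times the highest other library.

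Esam encodes an adhesion molecule of endothelial tight junctions and platelets (ENSMUSG00000001946.15, mm39 chromosome 9, 37439374 to 37449615, plus strand). It had the highest mean TPM of this group, 21.4 over the 8 libraries. It was at 5.23, 9.197, 14.8 and 15.6 CPM in the controls and at 7.37, 63.2, 10.9 and 27.6 CPM in RhoA het. RhoA het replicate 6 was again highest, by 2.29 times, and RhoA het replicate 8 stood above all controls. Cdh5, the gene of VE-cadherin, had the same order at its top, with 94.03 CPM in RhoA het replicate 6, 33.6 CPM in RhoA het replicate 8 and 8.87 to 24.4 CPM elsewhere. Cldn5, which encodes the claudin that seals endothelial tight junctions, reached 37.65 CPM against at most 4.78 CPM. Icam2, an adhesion molecule for leukocytes, reached 15.6 CPM against at most 2.21 CPM.

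Receptors and the receptor phosphatase Ptprb formed the largest group and the most divided one. In 6 of its 9 genes RhoA het replicate 6 was at least 4 times the highest other library. Kdr and Flt1, which encode the VEGF receptors VEGFR2 and VEGFR1, were at 77.02 and 89.8 CPM there. Their highest values elsewhere were 11.6 and 13.3 CPM. Tie1, an orphan receptor of the angiopoietin system, was at 53.8 CPM against at most 7.197 CPM, and Ptprb, the phosphatase that acts on the angiopoietin receptor, was at 87.4 CPM against at most 13.3 CPM. Cd93 (67.4 against 8.22 CPM) and Robo4 (17.4 against 2.66 CPM), surface receptors of endothelium, had the same pattern.

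The other receptor genes were present in every library, and RhoA het replicate 6 was at most 1.14 times the highest other one. Among the 7 other libraries the highest was 2.35 times the lowest for Eng, 2.04 for Tek and 1.91 for Clec14a. The median over all genes tested was 1.9. Tek encodes TIE2, the angiopoietin receptor, which is also known from muscle stem cells (ENSMUSG00000006386.16, mm39 chromosome 4, 94627526 to 94763213, plus strand). It was at 49.97, 60.2, 76.04 and 38 CPM in control replicates 2, 5, 7 and 8 and at 54.04, 86.1, 47.9 and 37.4 CPM in RhoA het replicates 5, 6, 7 and 8. RhoA het replicate 6 was highest by 1.13 times, and control replicate 7 came next. Eng, the gene of the TGF-beta co-receptor endoglin (ENSMUSG00000026814.17, mm39 chromosome 2, 32536607 to 32572681, plus strand), was at 43.5, 93.8, 57.5 and 39.9 CPM in the controls and at 54.1, 107.1, 41.2 and 71.4 CPM in RhoA het. Its ratio to the highest other library was 1.14. Exons of Eng overlap those of Fpgs on the opposite strand, which held 1938 fragments in all libraries together, and the counts do not use strand.

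Clec14a, the gene of a C-type lectin of endothelium, was the exception among all 34 (ENSMUSG00000045930.4, mm39 chromosome 12, 58311506 to 58316076, minus strand). Control libraries had 7.66, 11.6, 10.5 and 9.82 CPM and RhoA het libraries 14.7, 13.8, 13.2 and 10.5 CPM, in the order of the replicates. RhoA het replicate 5, not 6, was the highest library. The groups overlapped only in that RhoA het replicate 8 lay below control replicate 5. Means were 9.91 ± 1.67 and 13.04 ± 1.77 CPM (SD, n = 4 each), with a two-sided exact permutation p of 0.0571 on log2 CPM. That was the lowest exact p of any member, and the smallest the 70 assignments of 4 against 4 libraries can give is 0.0286.

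Promoter sequences were compared for receptor and junction genes that differed in this way. RefSeq promoters of build GRCm38.p6 were at hand for 18 members (where a gene had several entries, the first was used), and the 250 bases before each start were searched on both strands. ETS factors such as ERG and FLI1 bind a GGAA core. AGGAAG or CGGAAG was found in 11 of the 18 (61.1%) and in 38.95% of 27025 promoters. The SOX motif ACAATG or AACAAT, whose letters can overlap each other, was found in 3 of 18 (16.7%, and 16.7% of all), and the GATA motif AGATAA in 0 of 18 (10.3% of all). Below are the 150 bases before the start of Flt1 (chr5:147726012-147726161, minus strand) and Cldn5 (chr16:18776697-18776846, plus strand), which were 6.75 and 7.87 times the highest other library in RhoA het replicate 6. They are followed by those of Tek (chr4:94739139-94739288, plus strand) and Eng (chr2:32646445-32646594, plus strand), which were not. Capitals mark the ETS letters, 5′ to 3′ along the gene's strand.
Flt1: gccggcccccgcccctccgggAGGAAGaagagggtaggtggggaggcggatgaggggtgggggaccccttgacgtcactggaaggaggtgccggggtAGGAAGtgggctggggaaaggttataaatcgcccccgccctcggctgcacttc
Cldn5: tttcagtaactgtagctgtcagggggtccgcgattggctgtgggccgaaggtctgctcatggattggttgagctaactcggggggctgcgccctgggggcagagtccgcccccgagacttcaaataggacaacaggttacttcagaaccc
Tek: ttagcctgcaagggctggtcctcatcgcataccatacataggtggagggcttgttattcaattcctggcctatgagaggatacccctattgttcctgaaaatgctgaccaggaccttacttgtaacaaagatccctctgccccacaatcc
Eng: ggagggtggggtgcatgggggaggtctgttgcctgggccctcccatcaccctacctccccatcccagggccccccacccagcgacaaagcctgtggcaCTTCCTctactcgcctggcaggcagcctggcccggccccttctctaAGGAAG
Flt1 and Eng each held 2 matches, while Cldn5 and Tek held none in this window. These 4 were picked with their values in view. Over all 18 promoters, the ETS letters were in 10 of the 14 genes at 2 times or more the highest other library in RhoA het replicate 6 (not in Kdr, Ly6c1, Cldn5 or Erg) and in 1 of the 4 under 2 times (Eng, not Tek, Cav1 or Clec14a). A match is a description of letters, not a binding site.

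Transcription factors of the endothelium were at their highest in RhoA het replicate 6. Sox7, Sox17 and Sox18 form the SOXF group that acts in vessel development, and Erg is an ETS factor of endothelial identity. Sox7 (ENSMUSG00000063060.7, mm39 chromosome 14, 64181122 to 64188181, plus strand) had the highest mean of the 4, at 13.1 TPM. It was at 4.33, 7.85, 8.21 and 5.26 CPM in control replicates 2, 5, 7 and 8 and at 6.76, 61.6, 8.34 and 6.68 CPM in RhoA het replicates 5, 6, 7 and 8. The 7 libraries other than RhoA het replicate 6 lay within a factor of 1.93 of each other for this gene.

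Sox18 (ENSMUSG00000046470.6, mm39 chromosome 2, 181311629 to 181313433, minus strand) had the lowest ratio of the group, 3.49. It was at 0.475, 2.6, 4.5 and 0.282 CPM in control and at 2.58, 15.7, 1.93 and 1.49 CPM in RhoA het. Control replicate 8 was the lowest library for this gene, in place of control replicate 2. Sox17, an arterial factor, ranged from 0.317 to 7.68 CPM outside RhoA het replicate 6 and reached 41.2 CPM in it. Erg reached 7.56 CPM against at most 1.46 CPM, and in control replicate 2 it rested on 3 fragments, the lowest count of any member.

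Secreted and matrix-bound products followed. Mmrn2 encodes an extracellular matrix glycoprotein of the endothelium that binds CD93 and CLEC14A (ENSMUSG00000041445.10, mm39 chromosome 14, 34097422 to 34126244, plus strand). It was at 0.845, 3.72, 8.51 and 2.54 CPM in the controls and at 5.26, 52.6, 4.89 and 4.27 CPM in RhoA het. Vwf, the gene of von Willebrand factor (ENSMUSG00000001930.18, mm39 chromosome 6, 125523737 to 125663642, plus strand), was at 1.22, 5.02, 7.42 and 3.34 CPM in control and at 6.67, 44.8, 7.49 and 5.5 CPM in RhoA het. Both genes were lowest in control replicate 2 and highest in RhoA het replicate 6, with the remaining libraries of both groups intermixed. Egfl7, a secreted factor whose locus hosts miR-126, was at 27.05 CPM against at most 4.197 CPM. It overlaps Agpat2 on the opposite strand, which held 987 fragments over all libraries.

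Among glycocalyx, fenestra and other surface genes, all 6 were at least 3.41 times the highest other library in RhoA het replicate 6. Tm4sf1, a tetraspanin-like surface protein (ENSMUSG00000027800.15, mm39 chromosome 3, 57193032 to 57209409, minus strand), had both the highest mean level, 68.9 TPM, and the lowest ratio of this group. It was at 34.4, 54.1, 50.9 and 76.9 CPM in control replicates 2, 5, 7 and 8 and at 58.6, 311.6, 43.1 and 91.4 CPM in RhoA het replicates 5, 6, 7 and 8. The groups overlapped, and RhoA het replicate 8 was second. Plvap, which forms the diaphragms of fenestrae and caveolae, was at 104.1 CPM against at most 21.1 CPM. Emcn and Podxl, sialomucins of the luminal surface, were at 25.8 and 78.4 CPM against at most 4.87 and 13.8 CPM. Ly6c1 and Ly6a, surface antigens of the Ly6 family, were at 64.2 and 49.7 CPM against at most 10.6 and 9.41 CPM. Ly6a (Sca-1) is also a marker of fibro-adipogenic progenitors, and reads of near-identical Ly6 genes may be lost or assigned to another copy.

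Membrane transport and signalling genes held the most abundant members. Cav1 encodes caveolin-1, the coat protein of caveolae (ENSMUSG00000007655.17, mm39 chromosome 6, 17306334 to 17341451, plus strand). It was at 1076, 1169, 774.8 and 820.4 CPM in the controls and at 859.8, 1324, 959.1 and 813.9 CPM in RhoA het. Its mean level of 907.6 TPM was the highest of the 34, and its ratio in RhoA het replicate 6 was 1.13. Aqp1, a water channel of capillary endothelium, had the second highest mean, 164.5 TPM. It was at 574.7 CPM in RhoA het replicate 6, at 139.5 CPM in RhoA het replicate 8 and at 25.8 to 90.02 CPM in the other libraries. Fabp4, a fatty acid binding protein of capillaries and adipocytes, was at 356.5 CPM against 14.5 to 57.3 CPM. Nos3, the endothelial nitric oxide synthase, was at 14.2 CPM against at most 3.45 CPM. Rasip1, a regulator of vessel lumen formation, was at 5.66 against 1.39 CPM, and Ushbp1 at 20.1 against 5.28 CPM. Rasip1 held only 10 to 119 fragments per library. Its exons overlap A030001D20Rik on the opposite strand, which held 159 fragments over all libraries. Those of Nos3 overlap Atg9b on the opposite strand (44 fragments). Apold1, an immediate early gene of endothelium, was at 51.8 CPM against at most 24.6 CPM, with RhoA het replicate 8 second.

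On the TPM scale, where genes can be compared, the order in RhoA het replicate 6 ran from Cav1 at 1182 TPM through Aqp1 (672.6), Fabp4 (244.2), Tm4sf1 (230.1) and Plvap (161.1) down to Vwf (8.58), Erg (6.71) and Rasip1 (5.43). Clec14a, at 9.27 TPM, lay near the bottom of that order.

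**Figure D2:**
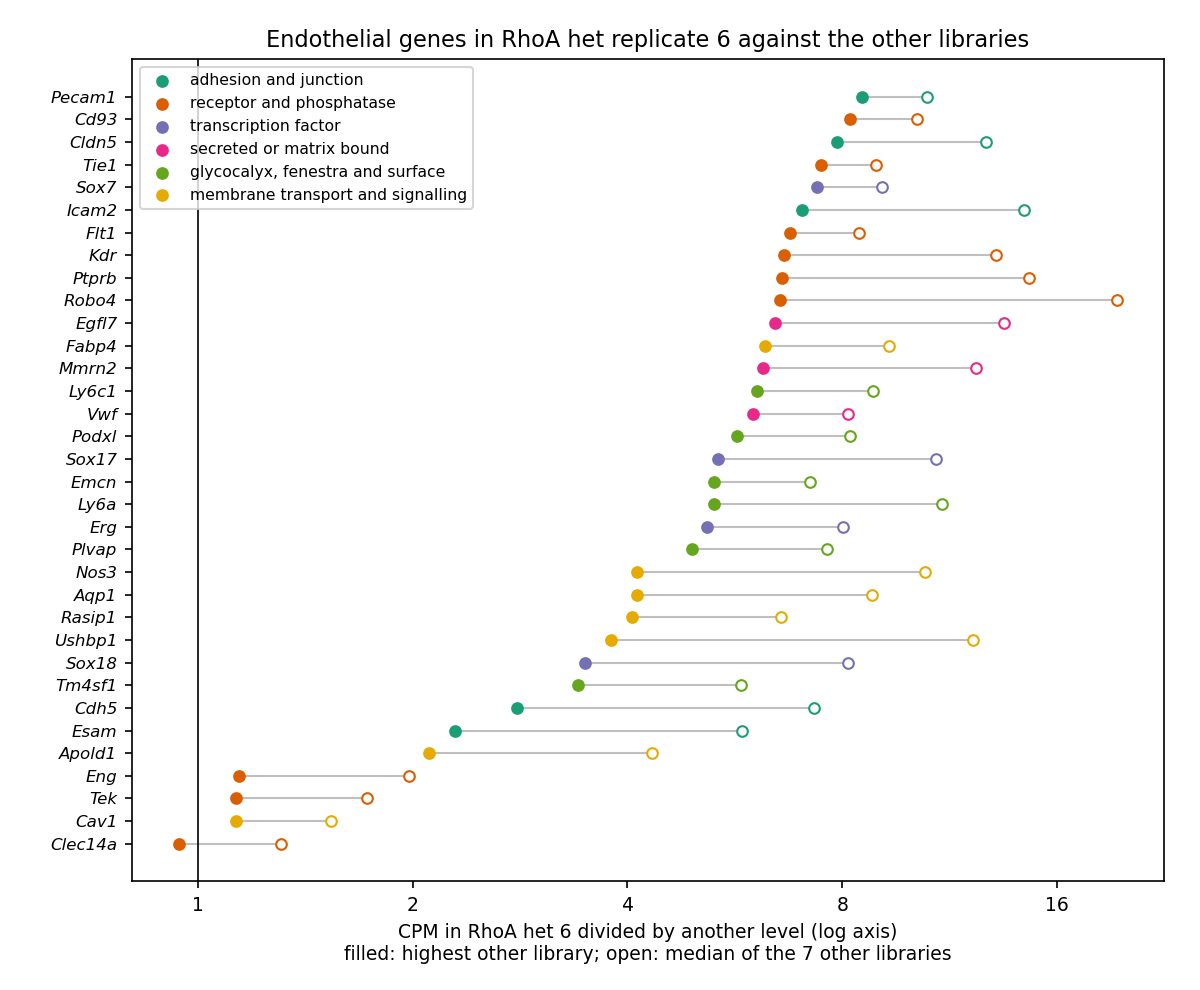
CPM of each gene in RhoA het replicate 6 divided by the highest other library (filled) and by the median of the 7 other libraries (open), on a log axis and coloured by role. Clec14a, Cav1, Tek and Eng lie between 0.941 and 1.14 for the highest other library, and the other 30 genes lie between 2.11 and 8.52.

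The 7 remaining libraries differed among themselves as well. For the members the highest of these 7 was a median of 5.35 times the lowest, against 1.9 times over all genes tested. Control replicate 2 was the lowest of the 7 for 28 of 34 members (19.0% of all genes tested), and 12 members were below 1 CPM there. Control replicate 7 was the highest of the 7 for 19 members, RhoA het replicate 8 for 6 and control replicate 5 for 5. The median log2 CPM of the members was 0.652, 2.84, 3.31 and 2.04 in control replicates 2, 5, 7 and 8. It was 2.76, 5.85, 2.9 and 2.81 in RhoA het replicates 5, 6, 7 and 8. Apart from replicate 6, the RhoA het libraries lay inside the range of the controls. The 6 genes for which RhoA het replicate 8 came first of the 7 were Cdh5, Esam, Tie1, Tm4sf1, Aqp1 and Apold1. That library also had the highest sum of 11 mural (pericyte and smooth muscle) markers, 3298 TPM against 1443 to 2468 TPM elsewhere, and the part of those cells in the 6 genes was not tested.

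The comparison of RhoA het with control, across all genes, called none of the 34 members (edgeR's quasi-likelihood fit, threshold 0.05 on p adjusted by Benjamini-Hochberg over 15660 genes, of which 0% were called). DESeq2 also called none of the members (and 0% of 32274 genes), and its default handling of single extreme counts left 17 of the 34 without a p. At an unadjusted p under 0.05 in edgeR, 10 members were higher in RhoA het and none lower. They were Pecam1, Icam2, Tie1, Cd93, Sox7, Vwf, Plvap, Ly6c1, Fabp4 and Aqp1. Over all genes, 1.68% were higher at that level (2.38% in either direction). All 34 members passed the filter on low counts, all 34 had a positive log2 fold change, and their median was 1.71 against -0.00071 over all genes tested. The groups overlapped in CPM for all 34 members, while 1.02% of all genes had every RhoA het library above every control and 0.792% every one below.

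The calls at an unadjusted p and the size of the median depended on RhoA het replicate 6. Without it, 0 members had an unadjusted p under 0.05 (1.23% of all genes were higher at that level and 1.96% in either direction), 27 of 34 had a positive log2 fold change and the median was 0.25. Tek, Kdr, Eng, Robo4, Egfl7, Ly6a and Cav1 had negative values, between -0.27 and -0.0014. Pecam1 had a log2 fold change of 2.2 (SE 0.88; 95% interval from 0.23 to 4.18; edgeR adjusted p 0.9998) over all 8 libraries and 0.52 (SE 0.51, interval -0.64 to 1.67) without that library. Tie1 went from 2.19 (SE 0.83) to 0.69 (SE 0.5) and Aqp1 from 1.79 (SE 0.71) to 0.56 (SE 0.42). Clec14a stayed close to its value, at 0.4 (SE 0.18, interval -0.01 to 0.81, edgeR adjusted p 0.9998) and 0.37 (SE 0.21, interval -0.1 to 0.83). The widths of the intervals differ between genes, and that of Sox17 ran from -1.68 to 1.83 without that library. The count at an unadjusted p also fell to 0 without control replicate 2 (234 of 16116 genes over all) or control replicate 8 (227 of 16049). It fell to 3 without control replicate 5 (330 of 16112) and rose to 15 without control replicate 7 (311 of 16015). Without RhoA het replicates 5, 7 and 8 it rose to 23, 25 and 22 (365 of 16080, 319 of 16059 and 244 of 16006).

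**Figure D3:**
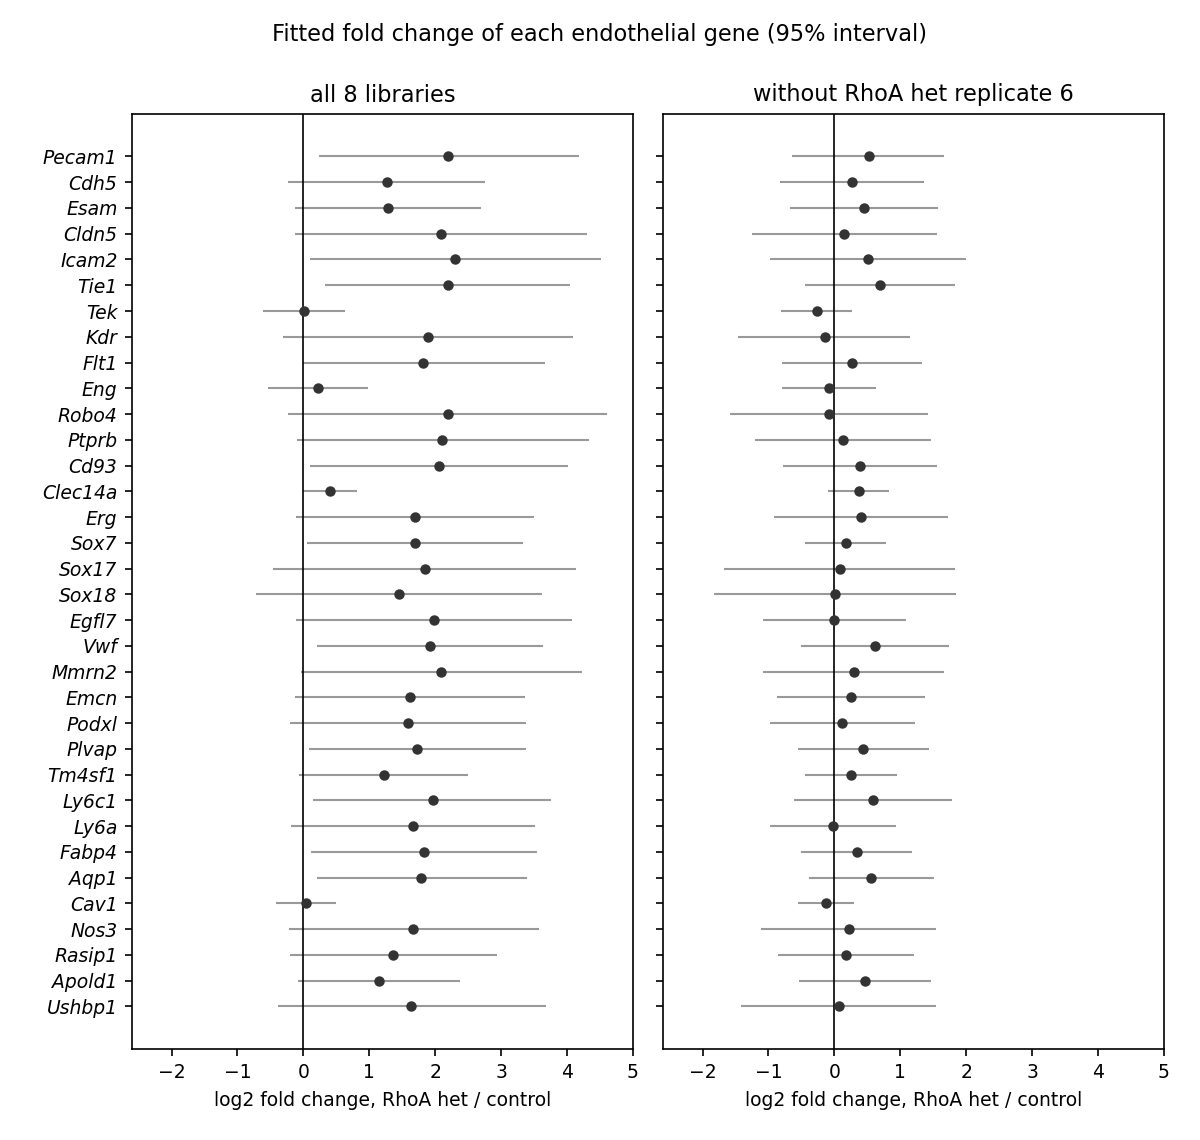
Log2 fold change of RhoA het over control for each gene, with 95% intervals from the edgeR fit, over all 8 libraries (left) and without RhoA het replicate 6 (right). The median goes from 1.71 on the left to 0.25 on the right, where all 34 intervals include 0.

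Replicate numbers 5, 7 and 8 occur in both groups, and same-numbered libraries resembled each other across genes. When these 3 pairs were fitted with the number as a block, the median log2 fold change of the members was 0.04, with 20 of 34 positive and 0 at an unadjusted p under 0.05 (2.98% of all genes were higher and 5.26% changed either way; 0.0127% were called at an adjusted p). In the same 6 libraries without the block it was -0.02, with 17 of 34 positive and 0 at that level (1.02% higher, 1.77% either way). These 6 are also the libraries with at most 2 Y-linked fragments. Control replicate 2 and RhoA het replicate 6, the lowest and the highest by the median of the members, are not among them.

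Other endothelial genes, from lists of vessel types, were set beside the members. Of the genes on these lists, those at least 4 times the highest other library by CPM in RhoA het replicate 6 were 4 of 12 arterial, 4 of 11 capillary, 4 of 10 venous, 1 of 7 lymphatic and 9 of 34 other endothelial-enriched genes. The arterial ones included the connexin gene Gja5 (7.43 TPM against at most 0.773) and the Notch ligand gene Dll4 (20.7 against 3.82 TPM). Among capillary genes were Gpihbp1, which anchors lipoprotein lipase (37.1 against 6.2 TPM), and the fatty acid transporter gene Cd36 (259.5 against 69.8 TPM). The venous ones included Selp and Ackr1, P-selectin and the atypical chemokine receptor of venules (161.7 against 29.4 and 114.5 against 28.4 TPM). The lymphatic factor gene Prox1 was at 76.1 TPM against 42.4 to 62.2 TPM, and Lyve1 at 2.45 against at most 1.63 TPM. No gene of these lists was called at an adjusted p under 0.05 in edgeR.

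Several abundant genes of these lists stood out less in RhoA het replicate 6. Exceptions included Cd36, Selp and Ackr1 above, and Sele, at 89.4 TPM and 4.98 times the highest other library by CPM. Vcam1, which muscle stem cells are themselves known to express, was at 1762 TPM in RhoA het replicate 6 and at 654.7 to 1156 TPM elsewhere, and Cd34 at 176 TPM and 95.4 to 176.4 TPM. Rgcc, the most abundant gene of the capillary list, was at 852 TPM against 350.9 to 798.5 TPM, and Hey1 and the connexin gene Gja4 of the arterial list at 50.99 and 54.3 TPM against at most 51.7 and 45.5 TPM. Gja4 was as low as 10.5 TPM in another library. Pdpn, on the lymphatic list, was at 3024 TPM against 1482 to 3484 TPM. A further list held 14 genes, most of them ligands and receptors of the VEGF, angiopoietin and apelin systems. By CPM only its Notch ligand gene Dll4, also on the arterial list, reached 4 times the highest other library. The apelin receptor gene Aplnr came next, at 3.51 times. The most abundant of this list in RhoA het replicate 6 were the angiopoietin-like genes Angptl4 and Angptl2. They were at 174.3 and 29.3 TPM there and reached 328.4 and 92.9 TPM elsewhere.

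Ranked by Pearson's r of log2 CPM over the 8 libraries with the mean of the members, the most similar of 13628 other genes were Enpp3, Tspan13, C1qtnf9, Clic5, Adgrf5, Fli1, Adgrl4, Grrp1, Tgtp1 and Prkch. The ranking turns on RhoA het replicate 6, where these 10 genes were 2.83 to 6.88 times the highest other library. Adgrf5, Fli1, Adgrl4 and Grrp1 were already on the list of other endothelial-enriched genes. Fli1, an ETS factor of endothelial and blood cells, was at 32.4 CPM there against 1.85 to 4.87 CPM.

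Markers of other cells moved with the endothelial genes in part. In RhoA het replicate 6, 16 of 18 immune markers were at their highest (13.4% of all genes tested were). By CPM, 9 were at least 4 times the highest other library (0.562% of all genes tested). S100a9 (151.5 against 17 TPM) and Ptprc (0.742 against 0.0892 TPM) were among them. Only 6 of the 18 passed the filter on low counts. Some of the 9 were low even in that library, such as Itgam at 0.666 CPM and Cd52 at 1.14 CPM. The immune list summed to 746.1 TPM in that library, inside the range of 332.9 to 833.2 TPM in control. Lyz2, a lysozyme gene of macrophages and neutrophils, held most of that sum in the other libraries (217 to 817.5 TPM) and was at 209.1 TPM in RhoA het replicate 6. The summed erythroid list was 1286 TPM in RhoA het replicate 6 and 625.2 TPM in control replicate 7, against 8.68 to 112 TPM in the other libraries. Of the 11 mural, 8 Schwann, 15 myofibre and 16 stem cell markers, 0 reached 2 times the highest other library in RhoA het replicate 6. Of 10 fibro-adipogenic markers, Ly6a, which is also an endothelial member, was at 5.28 times, and the other 9 were under 2 times. Rgs5, a pericyte gene, was at 600.3 TPM there against 144.2 to 678.5 TPM, and Col3a1, a collagen of fibro-adipogenic cells, at 646.7 against 394.8 to 2485 TPM. Of the dissociation response list, an early stress program of isolated cells, 7 of 21 genes were highest in that library and 0 reached 2 times the highest other one. No marker of any list was at 0 in it. The part of blood cells in the endothelial values was not tested.

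**Figure D4:**
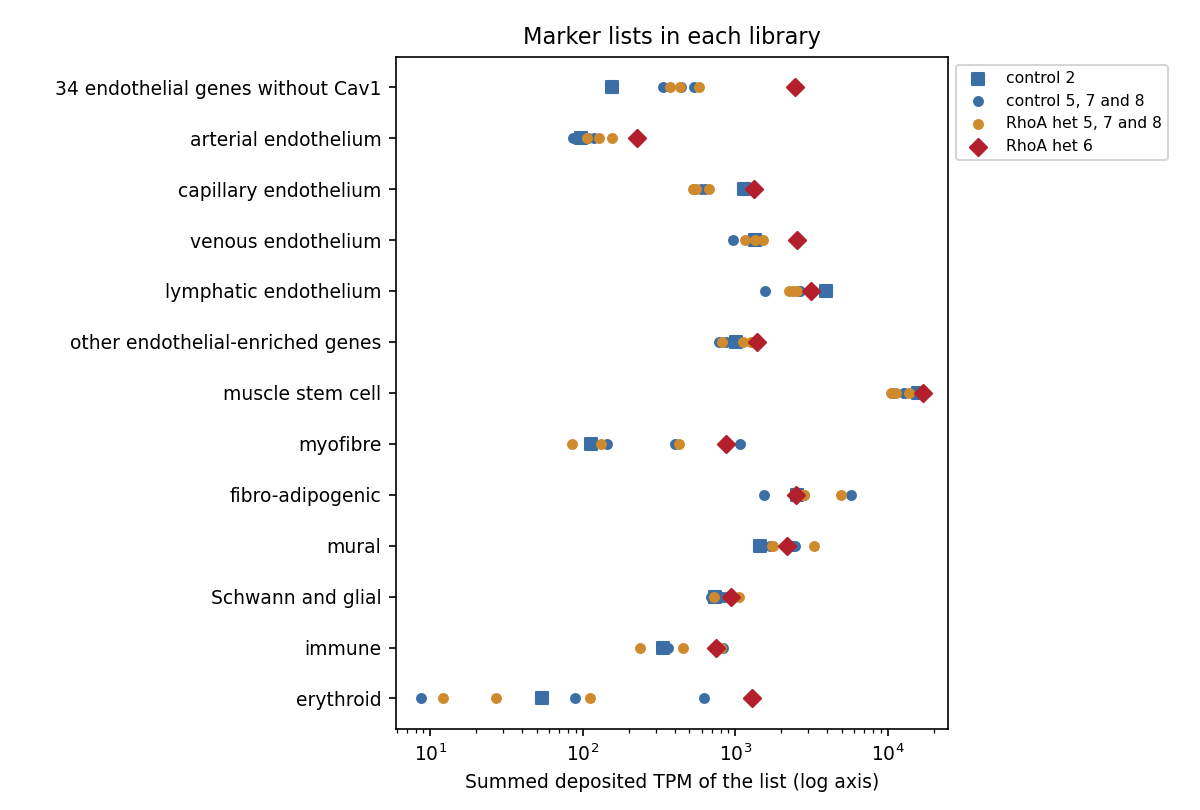
Summed deposited TPM (log axis) of each marker list in the 8 libraries, with control in blue and RhoA het in orange and red. The top row sums the 34 endothelial genes without Cav1. RhoA het replicate 6 (diamonds) stands furthest right for the endothelial genes, the arterial, capillary, venous and other endothelial-enriched lists, the stem cell list and the erythroid list.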

How the data were processed

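RNA from purified muscle stem cells was sequenced in 4 control and 4 RhoA het libraries. Per the file headers, the authors counted read pairs with featureCounts 1.6.4 over exons of each gene, from STAR alignments, with the GENCODE mouse release 34 annotation on mm39. The deposited count table thus holds raw fragments, with no strand, multi-mapping or overlap option set, so reads shared by overlapping genes were not assigned by strand. The deposited TPM table equals those counts divided by exon length and rescaled, to a relative difference of at most 2e-14. The counting command names 10 libraries, of which 8 are in the table, and the others were not analysed here. The submitters' processing notes also name FastQC, cutadapt and DESeq2. Symbols were matched for 51884 of 57180 genes.

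The members and the gene lists were chosen with earlier results of these data known. Counts were fitted with edgeR 4.0.16 (R 4.3.3; quasi-likelihood test, TMM scaling, filterByExpr, no covariates), and genes were called at a Benjamini-Hochberg adjusted p under 0.05. As a check of the code only, the fit was also run on simulated counts with set fold changes. Single members had a two-sided exact permutation test on log2 CPM (prior count 2). Values in every library were given for the most abundant member of each role and for the one with the lowest ratio of RhoA het replicate 6 to the highest other library. Outside the members, the rule named the 2 most abundant genes of each list in that library and the 10 genes most similar to the members. Pecam1, Tek, Aqp1, the promoters shown and the other list genes were picked with their values in view. The alternatives comprised DESeq2 1.42.0, limma 3.58.1 on log2 TPM, other scalings and filters, a replicate block, and each library left out. The counts of members with a positive fold change or an unadjusted p under 0.05 were added after seeing the data.

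Replicate numbers 5, 7 and 8 occur in both groups. Deviations from the group means of same-numbered libraries correlated at 0.574, 0.349 and 0.5 across genes, so the numbers were taken to pair them, although the labels do not say what a number marks. Library totals bound the precision of low genes, and fragments counted without molecular identifiers are not independent molecules.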

Additional observations from a re-analysis of the deposited data

Results flagged for a closer look

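In the RhoA het group of 4 libraries, 14 members had 1 library apart from the others, and it was RhoA het replicate 6 each time. The measure was the gap of log2 CPM between that library and its nearest neighbour, as a share of the range of the group, and the limit was Dixon's 95% critical value for 4 libraries. Of the adhesion genes, Pecam1 had a share of 0.874. Of the receptors and phosphatase, Tie1 had 0.902, Kdr 0.881, Robo4 0.889, Ptprb 0.833 and Cd93 0.879. The transcription factor Sox7 had 0.901. Among secreted products the shares were 0.956 for Egfl7, 0.854 for Vwf and 0.918 for Mmrn2. Among surface genes they were 0.855 for Emcn, 0.881 for Plvap and 0.838 for Ly6a, and Fabp4 had 0.902. The mean log2 CPM of the 34 members had 0.959, at 5.8 in that library. No control library was apart from its group by this measure. Chance passes this limit in about 1 of 20 groups, or 3.5 of the 70 examined. That figure is no test here, because the library was named beforehand and the members were chosen with earlier results known. The share of all genes past this limit was not computed. The members share their libraries, so these are not separate observations.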

How the results depend on the processing

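The log2 fold changes of the members had a median of 1.71 over all 8 libraries, 0.04 with the replicate block, -0.02 in the same 6 libraries without it, and 0.25 to 2.21 when 1 library was left out (lowest without RhoA het replicate 6). With limma on log2(TPM + 1) it was 0.95 and on log2(TPM + 0.1) 1.28. A pseudocount lowers the changes of low genes. Sox7, at 3.39 TPM or more in every library, went from 1.7 to 1.07 with the smaller pseudocount. Why these medians were lower was not tested. No setting called a member. Over all genes the block called 2 and every other setting 0. Members higher at an unadjusted p under 0.05 numbered 10 (263 of 15660 genes over all). With no filter there were 28 (641 of 32507 genes). By limma there were 2 with either pseudocount (273 and 278 of 15660). With the block and in its 6 libraries without it there were 0 (468 and 160 of 15714). Leaving out 1 library gave 0 to 25. It gave 0 without control replicate 2 (234 of 16116 genes), control replicate 8 (227 of 16049) or RhoA het replicate 6 (197 of 16035). It gave 3 without control replicate 5 (330 of 16112) and 15 without control replicate 7 (311 of 16015). Without RhoA het replicates 5, 7 and 8 it gave 23, 25 and 22 (365 of 16080, 319 of 16059 and 244 of 16006). Positive fold changes numbered 34, with 20 under the block, 17 in its 6 libraries unblocked and 27 to 34 with 1 library left out. The ratio of RhoA het replicate 6 to the highest other library had a median of 5.32, 5.21 with upper-quartile factors, 4.94 with total counts and 4.91 from deposited TPM.

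Signs turned negative with the replicate block for Cdh5 (-0.06), Cldn5 (-0.24), Tek (-0.31), Kdr (-0.41), Flt1 (-0.05), Eng (-0.18), Robo4 (-0.2), Ptprb (-0.08), Sox17 (-0.17), Egfl7 (-0.12), Emcn (-0.04), Podxl (-0.18), Ly6a (-0.17) and Cav1 (-0.07). In those 6 libraries without the block they did for Cldn5 (-0.2), Tek (-0.35), Kdr (-0.5), Flt1 (-0.05), Eng (-0.22), Robo4 (-0.42), Ptprb (-0.22), Sox17 (-0.32), Sox18 (-0.33), Egfl7 (-0.26), Mmrn2 (-0.06), Emcn (-0.07), Podxl (-0.2), Ly6a (-0.26), Cav1 (-0.09), Nos3 (-0.04) and Ushbp1 (-0.2). Tek was at -0.00038 with no filter. With 1 library left out, the values ranged from -0.27 to 0.19 for Tek, -0.13 to 0.14 for Cav1, -0.15 to 2.36 for Kdr, -0.08 to 0.53 for Eng, -0.08 to 3.11 for Robo4, -0.0014 to 2.58 for Egfl7 and -0.02 to 2.14 for Ly6a. The 6 libraries leave out control replicate 2 and RhoA het replicate 6 by construction. Otherwise the cause was not tested. Members such as Erg and Robo4 rest on few fragments in control replicate 2, which limits their fold changes.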

Other observations

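Genes were also screened for standing at 10 CPM or more and at least 4 times every other library. RhoA het replicate 6 had 63 such genes, control replicate 2 had 23, RhoA het replicate 5 had 1 and the other 5 libraries had 0. The 23 of control replicate 2 held 0 members and 2 genes of the other endothelial lists. These were the chemokine genes Ccl21a, on the lymphatic list (131 CPM, 13.2 times the highest other library), and Cxcl12, on the capillary list (905.7 CPM, 5.5 times), so control replicate 2 was not low for every endothelial list gene. The 63 comprised 22 members, 16 genes of the other endothelial lists, 2 of the immune list (S100a8 and S100a9) and 23 in no list. Those in no list, chosen after their values were seen, include the neutrophil granule genes Ngp (98.8 CPM, 9.12 times the highest other library), Ltf (43.8 CPM, 9.35 times) and Camp (17.6 CPM, 4.15 times). Lcp1, the leukocyte actin-bundling gene, was at 13.03 CPM and 17.1 times. Tspan13, C1qtnf9, Clic5 and Prkch, named above among the genes most similar to the members, were also of the 23. The cell types of the 23 were not tallied.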
